A study of Rattus norvegicus with 20 samples.

Results

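*Creb1*, *Crem*, *Crebbp*, *Ep300*, *Crtc1*, *Crtc3*, *Mef2a*, *Mef2c*, *Mef2d* and *Srf* encode transcription factors, and the coactivators they recruit, that turn synaptic activity into transcription in neurons. They were chosen by name, for this role, and are 10 of the 31038 genes listed in the count matrix. All 10 passed the filter on low counts and were among the 16605 genes tested. RNA from the medial prefrontal cortex (mPFC) of 20 male Sprague-Dawley rats was sequenced after poly(A) selection, with 1 library per rat. In the LSD group, 10 rats aged 6 to 8 weeks at the start received 0.16 mg/kg of lysergic acid diethylamide by intraperitoneal injection every other day over 90 days. The Ctrl group consisted of 10 rats given sterile saline on the same schedule. Per the labels, tissue was taken 3 weeks after the last injection, so the libraries show RNA levels after withdrawal and not during exposure. The study's methods give a longer interval and an older age at the start. All rats were males of 1 outbred strain, and the tissue held every cell type of the dissected region.

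CREB1 binds the cAMP response element (CRE), and its phosphorylation by kinases downstream of cAMP and calcium lets it bind the histone acetyltransferases CBP (gene *Crebbp*) and p300 (gene *Ep300*). CRTC proteins are a separate class of CREB coactivators, which calcineurin releases into the nucleus and salt-inducible kinases hold in the cytoplasm. CREM is a close relative of CREB1, and an internal promoter of its gene yields the short repressor ICER. MEF2 factors and SRF belong to the MADS-box family, and they bind an A/T-rich site and the CArG box, respectively. In the cortex these factors are known for driving immediate-early genes, neurotrophin genes and genes that restrain or reshape synapses, and SRF with its MRTF cofactors drives genes of the actin cytoskeleton.

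These genes are themselves read by promoters, and a few carry the sites that their own products bind. Promoter windows from RefSeq (build GRCr8, 250 bases before to 50 after an annotated start) were on hand for 9 of the 10 genes, 12 windows in all, and not for *Mef2c*. The searched motifs were the full CRE (TGACGTCA), the CRE core (TGACG, which every full CRE also holds), the CArG box and the MEF2 site, on both strands. The full CRE was in 1.83% of all 33469 windows, the core in 21.2%, the CArG box in 1.64% and the MEF2 site in 3.29%. Of the 10 genes, *Crem* held the full CRE in 2 of its 3 windows, *Srf* held the CArG box and *Mef2a* held the MEF2 site. *Creb1* held CRE cores in 1 of its 2 windows, and the windows of *Crebbp*, *Ep300*, *Crtc1*, *Crtc3* and *Mef2d* held none of the 4 motifs. Cores were also in all 3 windows of *Crem* and in the window of *Srf*. Thus 3 of the 9 genes held a core (33.3%), against 23.0% of 27457 genes with a window. The stretches below, which do not hold every match, are shown because each gene's promoter carries letters bound by its own family. The match is in capitals, and the last base lies directly before the start site. A match is a description of the sequence and was not tested for binding.
*Crem* (chr17:58985390-58985489, plus strand, window 3): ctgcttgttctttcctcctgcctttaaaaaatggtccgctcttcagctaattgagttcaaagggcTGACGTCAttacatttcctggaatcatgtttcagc
*Crem* (chr17:58984697-58984796, plus strand, window 2): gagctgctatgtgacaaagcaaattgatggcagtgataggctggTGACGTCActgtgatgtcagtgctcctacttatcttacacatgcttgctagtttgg
*Srf* (chr9:21923956-21924075, plus strand): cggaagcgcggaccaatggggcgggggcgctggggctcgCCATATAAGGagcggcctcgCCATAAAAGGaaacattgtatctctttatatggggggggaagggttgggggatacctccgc
*Mef2a* (chr1:130392163-130392262, minus strand): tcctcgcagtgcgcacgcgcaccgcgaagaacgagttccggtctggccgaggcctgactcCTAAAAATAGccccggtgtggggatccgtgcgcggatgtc
*Creb1* (chr9:73397409-73397508, plus strand, window 1): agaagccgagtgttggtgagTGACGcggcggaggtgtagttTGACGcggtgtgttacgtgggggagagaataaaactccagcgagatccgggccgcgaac
The *Crem* stretches hold 1 full CRE each, the *Srf* stretch 2 CArG boxes, the *Mef2a* stretch 1 MEF2 site and the *Creb1* stretch 2 CRE cores.

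The LSD libraries held 16346629 to 25552681 reads on genes (median 20271086) and the Ctrl libraries 11098076 to 24201351 (median 16815424), so LSD libraries were deeper (two-sided permutation test, p = 0.0156). LSD libraries also held relatively more reads on genes with long genomic spans. The rank correlation across genes between the span and how far a rat's level departed from the average rat lay between 0.0851 and 0.292 in LSD and between -0.434 and 0.121 in Ctrl (permutation test on the rats, p = 8e-05). Depth and span trend both differ between the groups. Levels are in RPM, that is, reads scaled to a library of 1000000 after TMM normalisation. They are not divided by transcript length, so levels are compared between groups for a gene and not between genes.

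*Creb1* rose in LSD and *Srf* fell, and the other 8 genes did not pass the test. The test was edgeR's quasi-likelihood F test with Benjamini-Hochberg adjustment over all 16605 genes, and a gene was called at an adjusted p under 0.05. In this comparison 6.48% of all genes tested were called higher and 8.54% lower, 15.0% in either direction, and the count for the 10 genes (1 higher and 1 lower) is near this background. Their median log2 fold change was 0.08, against 0.00 for all genes tested, with 7 genes above 0 and 3 below. The LSD and Ctrl ranges overlapped for every one of the 10 genes. The share of all genes tested with such an overlap is not given here, so the overlap is not particular to these genes. These are bulk samples, in which a change in the number of cells of a type and a change in RNA per cell cannot be told apart.

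**Figure D1:**
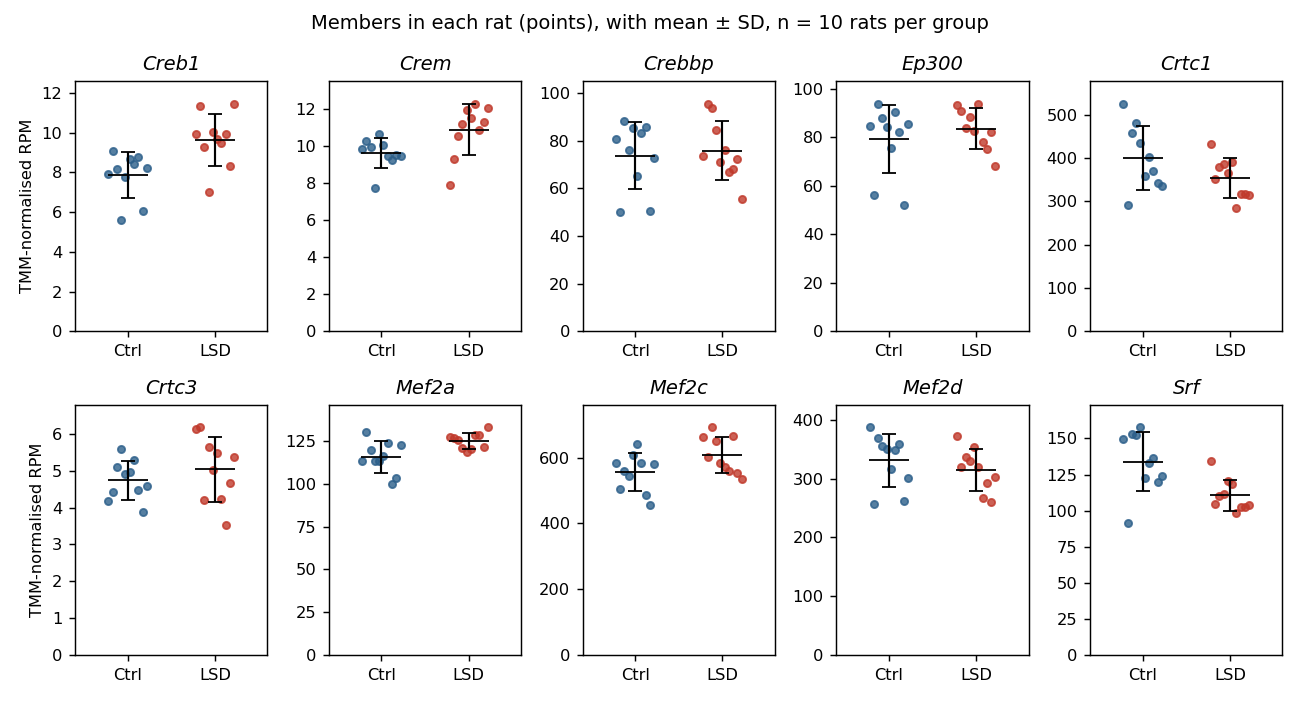
Level of each of the 10 genes in each rat, in TMM-normalised RPM, with 1 panel per gene, 1 point per rat (10 LSD, 10 Ctrl) and a bar at the mean of each group with its SD. *Creb1* lies higher in LSD, where 8 of 10 rats exceeded every Ctrl rat, and all 10 LSD rats lay under the Ctrl median of *Srf*, yet the ranges of the groups overlapped in every panel.

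*Creb1*, which encodes the CRE-binding activator itself, measured 7.02 RPM in the lowest LSD rat, 9.80 at the median and 11.5 in the highest. In Ctrl the lowest, median and highest values were 5.60, 8.19 and 9.09 RPM. Thus 8 of 10 LSD rats exceeded every Ctrl rat and 9 exceeded the Ctrl median, while 1 LSD rat fell within the lower part of the Ctrl range. The means were 9.65 ± 1.30 RPM in LSD and 7.87 ± 1.15 RPM in Ctrl (SD, n = 10 each), a log2 fold change of 0.29 (SE 0.095, 95% confidence interval 0.095 to 0.49, adjusted p = 0.0408, edgeR). The gene was read at low depth, with 79 to 290 reads per rat. Its span overlaps that of *Mettl21a* in the RefSeq annotation, and the strand setting of the counting is not given in the sources used here. For *Mettl21a* itself the log2 fold change was 0.04 (adjusted p = 0.792, edgeR).

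The call for *Creb1* lay close to the threshold. Leaving out 1 rat at a time gave log2 fold changes between 0.25 and 0.33, which passed in 8 of 20 fits. With log2 depth as a covariate, where 7.06% of all genes were called in either direction, the log2 fold change was 0.26 (adjusted p = 0.136, edgeR). With offsets for gene span, where 10.3% were called, it was 0.22 (adjusted p = 0.101, edgeR). With reads drawn to equal depth, where 14.2% of 15715 genes were called, it was 0.28 (adjusted p = 0.06575, edgeR). The direction was the same in all 12 alternatives, and the fold change was between 0.22 and 0.34.

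*Crem*, whose promoter windows hold the full CREs shown above, had 7.91, 11.2 and 12.3 RPM as lowest, median and highest LSD values and 7.73, 9.67 and 10.6 RPM in Ctrl. Here 7 of 10 LSD rats lay above every Ctrl rat and 8 above the Ctrl median, with the remaining LSD rats spread into the Ctrl range. The means of 10.9 ± 1.36 and 9.61 ± 0.788 RPM gave a log2 fold change of 0.18 (95% confidence interval 0.025 to 0.34), which did not pass (adjusted p = 0.104, edgeR). The test passed in 1 of 20 fits that left out a rat, the fit without LSD rat 1 (adjusted p = 0.0240, edgeR). The log2 fold change of *Crem* was 0.12 with depth as a covariate and 0.11 with span offsets. Counts were made per gene symbol, so activator and ICER transcripts cannot be told apart. Within a rat, the log2 ratio of *Creb1* to *Crem* averaged -0.17 ± 0.31 in LSD and -0.30 ± 0.18 in Ctrl (difference 0.12, SE 0.11), which did not differ beyond the spread between rats (permutation test, p = 0.285, adjusted p = 0.427 over the 6 ratios tested).

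The acetyltransferase genes gave no detectable difference. *Crebbp* measured 55.5, 73.0 and 95.4 RPM (lowest, median and highest) in LSD and 50.2, 78.2 and 88.2 RPM in Ctrl, a log2 fold change of 0.04 (95% confidence interval -0.18 to 0.27, adjusted p = 0.843, edgeR). *Ep300* measured 68.3, 83.2 and 93.9 RPM in LSD and 52.2, 84.4 and 93.8 RPM in Ctrl, a log2 fold change of 0.08 (95% confidence interval -0.11 to 0.27, adjusted p = 0.605, edgeR). For each gene 2 Ctrl rats lay below every LSD rat, and the other Ctrl rats lay within the LSD range. The medians were lower in LSD while the fitted changes were above 0. *Ep300* passed only with depth as a covariate, where its log2 fold change was 0.28 (adjusted p = 0.0440, edgeR). The log2 ratio of *Crebbp* to *Ep300* differed by -0.05 between groups (SE 0.061, permutation test, p = 0.455).

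*Crtc1*, the CRTC gene best known from neurons, measured 285, 357 and 432 RPM in LSD and 290, 386 and 525 RPM in Ctrl. In Ctrl 4 rats lay above every LSD rat, and 7 LSD rats lay below the Ctrl median. The means were 354 ± 45.3 and 399 ± 73.8 RPM, a log2 fold change of -0.18 that did not pass (95% confidence interval -0.37 to 0.022, adjusted p = 0.218, edgeR). *Crtc3*, read with 53 to 136 reads per rat, had 3.52, 5.20 and 6.18 RPM in LSD and 3.88, 4.74 and 5.60 RPM in Ctrl, a log2 fold change of 0.09 (95% confidence interval -0.12 to 0.30, adjusted p = 0.601, edgeR). The log2 ratio of *Crtc1* to *Crtc3* was lower in LSD by -0.24 (SE 0.11), with 8 of 10 LSD rats below the Ctrl median, but it did not hold after adjustment (permutation test, p = 0.0358, adjusted p = 0.107).

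Among the MEF2 genes, *Mef2a* was the most even across LSD rats. Its lowest, median and highest values were 119, 126 and 133 RPM in LSD and 100.0, 115 and 130 RPM in Ctrl. All 10 LSD rats lay above the Ctrl median and 6 Ctrl rats lay below every LSD rat. The means of 125 ± 4.54 and 116 ± 9.22 RPM correspond to coefficients of variation of 3.63% and 7.97%, and no test of the spread was made. The log2 fold change of 0.11 (SE 0.046, 95% confidence interval 0.019 to 0.21) did not pass (adjusted p = 0.0938, edgeR), and it passed in 1 of 20 fits with a rat left out, the fit without Ctrl rat 2 (adjusted p = 0.0341, edgeR).

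*Mef2c*, the MEF2 gene tied most closely to cortical neurons, measured 534, 594 and 691 RPM in LSD and 457, 569 and 642 RPM in Ctrl. In LSD 7 of 10 rats exceeded the Ctrl median. The log2 fold change was 0.13 (95% confidence interval -0.0019 to 0.26, adjusted p = 0.169, edgeR). *Mef2d* went the other way, with 260, 319 and 372 RPM in LSD, 257, 350 and 387 RPM in Ctrl, and a log2 fold change of -0.07 (95% confidence interval -0.23 to 0.092, adjusted p = 0.584, edgeR). Scaling by total counts in place of TMM brought *Mef2a* (0.16, adjusted p = 0.0498) and *Mef2c* (0.17, adjusted p = 0.0448) past the threshold in edgeR. With offsets for gene span the log2 fold change was 0.022 for *Mef2a* (adjusted p = 0.786) and 0.035 for *Mef2c* (adjusted p = 0.743, edgeR), and their spans in GRCr8 are 134737 and 162908 bases. Scaling by total counts moved the median of all genes to 0.05 and the split of all calls from 1076 higher and 1418 lower to 1504 higher and 858 lower, 14.2% of all genes.

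Because a ratio of 2 genes within a library is free of the scaling, the MEF2 genes were also compared with each other. Such a ratio is not free of the depth and span trends, which differ between the groups. With depth as a covariate *Mef2c* was at 0.21 and *Mef2d* at 0.10 (log2 fold changes, edgeR). With span offsets they were at 0.035 and -0.091. The log2 ratio of *Mef2c* to *Mef2d* averaged 0.95 ± 0.15 in LSD and 0.75 ± 0.19 in Ctrl, a difference of 0.20 (SE 0.076), and 9 of 10 LSD rats lay above the Ctrl median (permutation test, p = 0.0190, adjusted p = 0.107). For *Mef2a* to *Mef2d* the difference was 0.18 (SE 0.10, p = 0.0822, adjusted p = 0.164, permutation test). For *Mef2a* to *Mef2c* it was -0.02 (SE 0.065, p = 0.811, permutation test). None of the 6 ratios passed after adjustment over the 6. Without Ctrl rat 2, the deepest Ctrl library, the *Mef2c* to *Mef2d*, *Mef2a* to *Mef2d* and *Crtc1* to *Crtc3* ratios each passed (lowest adjusted p = 0.0294, permutation test).

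*Srf*, the MADS-box factor of the CArG box, fell in LSD. Its lowest, median and highest values were 98.2, 107 and 134 RPM in LSD and 91.3, 135 and 158 RPM in Ctrl. All 10 LSD rats lay below the Ctrl median and 5 Ctrl rats lay above every LSD rat, while Ctrl rat 2 at 91.3 RPM lay below them all. The means were 111 ± 11.0 RPM in LSD and 134 ± 20.4 RPM in Ctrl, a log2 fold change of -0.28 (SE 0.081, 95% confidence interval -0.44 to -0.11, adjusted p = 0.0253, edgeR). The gene was well covered, with 1702 to 2630 reads per rat. It has the shortest span of the 10 genes in GRCr8, 9289 bases, against 29120 to 162908 bases for the others.

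**Figure D2:**
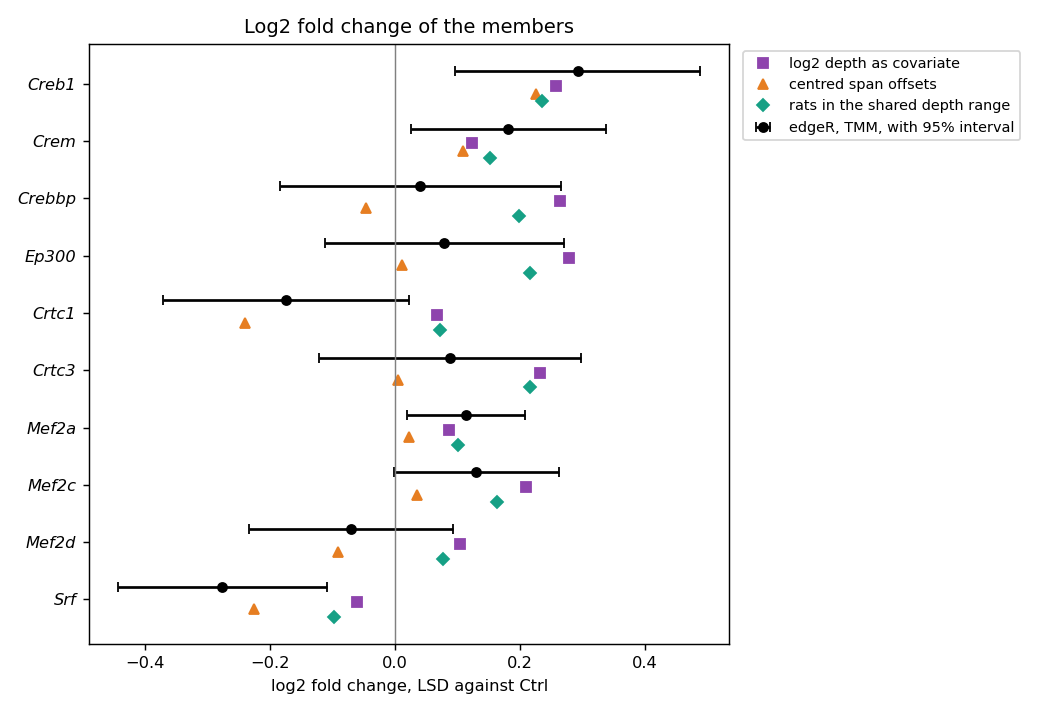
Log2 fold change of the 10 genes, LSD against Ctrl, from edgeR, with 95% confidence intervals for all 20 rats and the values from fits with log2 depth as a covariate, with offsets for gene span, and in the rats of the shared depth range. *Creb1* stays between 0.22 and 0.29 in these fits, while *Srf* goes from -0.28 to -0.06 with depth as a covariate.

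The level of *Srf* moved with the depth of the library within each group. After group means were removed, Pearson's r of log2(RPM + 1) with log2 depth over the 20 rats was -0.88 (rho -0.90, permutation test, adjusted p = 0.0002 over 20 relations). It was -0.85 in LSD, -0.90 in Ctrl and -0.85 without Ctrl rats 5 and 2. These 2 rats lay farthest from the median log2 depth after group means were removed. Ctrl rat 2, with 24201351 reads the deepest of its group, is the one with the lowest *Srf*, and Ctrl rat 5, with 11098076 reads the shallowest library, had the highest level. Ctrl rat 2 also had the highest sum of oligodendrocyte markers (6941 RPM).

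Several of the other genes moved the same way. For *Crtc1* r with depth was -0.84 (rho -0.91), for *Mef2d* -0.76 (rho -0.75), for *Ep300* -0.71 (rho -0.75), for *Crebbp* -0.66 (rho -0.65) and for *Crtc3* -0.57 (rho -0.66), each with an adjusted p between 0.0003 and 0.0172 (permutation test). *Mef2c* (r -0.46), *Crem* (r 0.31), *Mef2a* (r 0.22) and *Creb1* (r 0.13) did not pass. No gene of the 10 passed with the span trend. With log2 depth as a covariate the log2 fold change of *Srf* was -0.06 (adjusted p = 0.486), that of *Crtc1* 0.07 and that of *Mef2d* 0.10, so both of the latter turned sign (edgeR). *Crebbp* was then at 0.26, *Crtc3* at 0.23 and *Mef2c* at 0.21, and none of the 3 passed.

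An alternative chosen after seeing the data kept only the 14 rats whose depth lay in the range shared by the groups, 16346629 to 24201351 reads (8 LSD, 6 Ctrl). There the log2 fold change was -0.10 for *Srf* (adjusted p = 0.566) and 0.23 for *Creb1* (adjusted p = 0.314, edgeR). In these 14 rats 0 genes of the whole table (0.00%) passed with edgeR, against 2821 at an unadjusted p under 0.05, and DESeq2 called 134. Equal depth by drawing 11098076 reads per rat kept *Srf* called. The part of depth in the difference of *Srf* between the groups cannot be told apart from that of the treatment in these libraries.

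**Figure D3:**
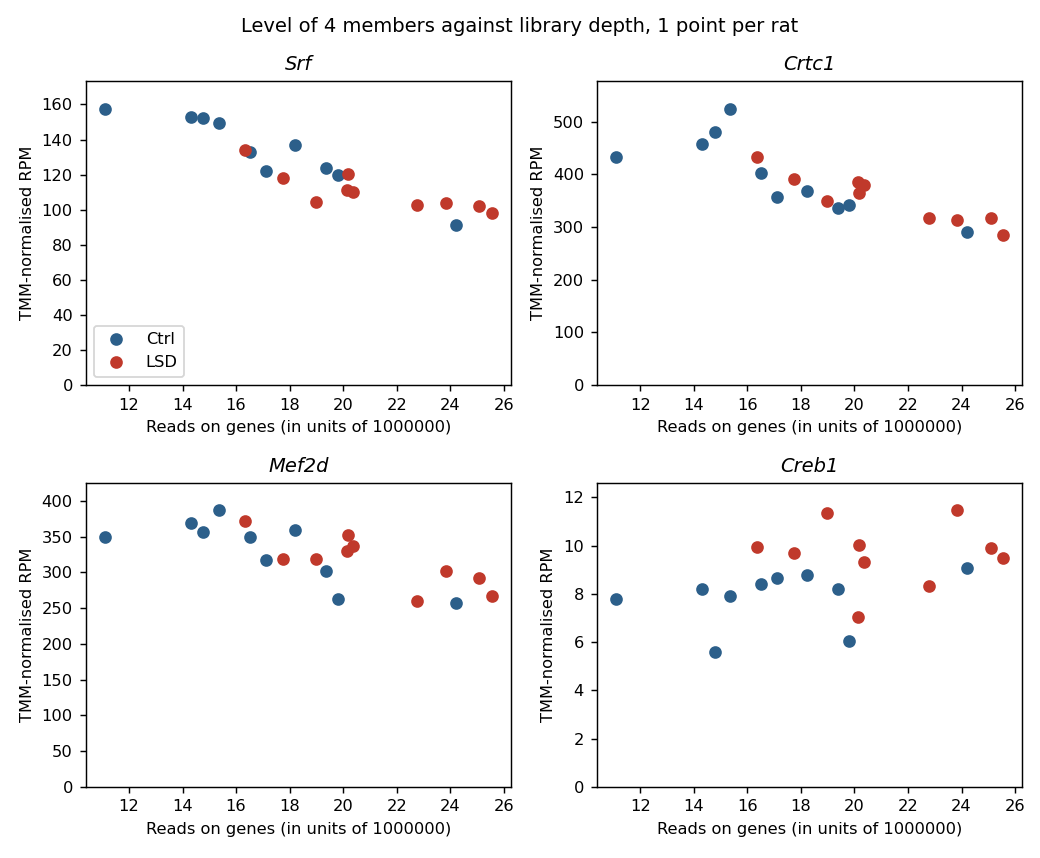
Level of *Srf*, *Crtc1*, *Mef2d* and *Creb1* in TMM-normalised RPM (vertical axis, from 0) against reads on genes in units of 1000000 (horizontal axis), with 1 point per rat, blue for Ctrl and red for LSD. *Srf*, *Crtc1* and *Mef2d* decline with depth in both groups, and *Creb1* does not.

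Across rats, 5 of the 10 genes varied together, *Srf*, *Crtc1*, *Mef2d*, *Ep300* and *Crebbp*, with r from 0.62 to 0.89 in every pair. In LSD alone, r in these pairs ran from 0.15 (*Crebbp* with *Srf*) to 0.89, and in Ctrl alone from 0.68 to 0.94. Without Ctrl rats 2 and 9 (2 and 1 for *Crtc1* with *Srf* or *Mef2d*), it ran from 0.38 (*Crebbp* with *Srf*) to 0.89. The weaker of these pairs thus depended in part on those Ctrl rats. Of the 45 pairs, 30 had a positive and 15 a negative correlation after group means were removed, with a median r of 0.17. In 11 pairs, all positive in both groups, the adjusted p of r was under 0.05 (permutation test), and 0 negative pairs passed. *Crtc1* and *Srf* were the closest pair (r 0.89, rho 0.91, adjusted p = 0.00015, from the smallest p that the permutations can give, 1e-05). Their r was 0.89 in each group and 0.89 without Ctrl rats 2 and 1. The next were *Crtc1* with *Mef2d* (r 0.87), *Mef2d* with *Srf* (r 0.86) and *Crebbp* with *Ep300* (r 0.86). Each gene of these 4 pairs declined with depth, as described above. The pairs of *Creb1*, *Crem* and *Mef2a* with these 5 genes had r between -0.42 and 0.07. The lowest pair was *Crem* with *Crtc3* (r -0.43, rho -0.26, adjusted p = 0.197), and r was -0.13 without LSD rat 1 and Ctrl rat 4.

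**Figure D4:**
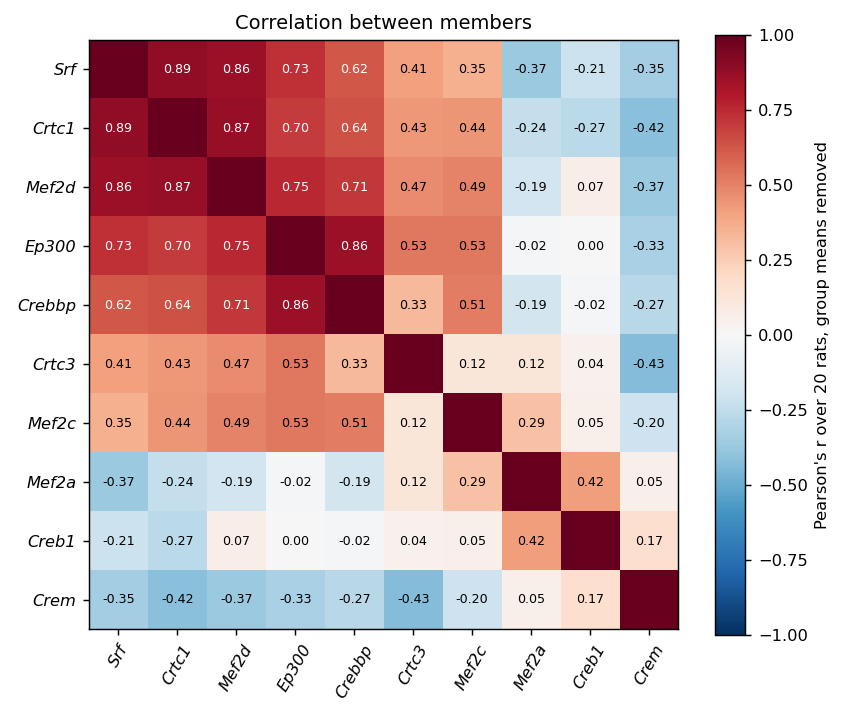
Pearson's r between the 10 genes over 20 rats, on log2(RPM + 1) with group means removed (red positive, blue negative, r printed in each cell). *Srf*, *Crtc1*, *Mef2d*, *Ep300* and *Crebbp* form a square of values from 0.62 to 0.89, and *Mef2a*, *Creb1* and *Crem* do not join it.

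The relatives, enzymes, partners and targets of the 10 genes were read from lists fixed by name, 82 of whose 83 genes were tested. Of these, 10 were called higher and 6 lower, against the 6.48% and 8.54% of all genes. The median log2 fold change over the 82 was 0.07. Of the other family members, *Atf1*, *Crtc2* and *Mef2b*, 0 of 3 passed (edgeR). *Crtc2*, the remaining CRTC gene, measured 31.0 ± 3.85 RPM in LSD and 37.0 ± 6.21 RPM in Ctrl (log2 fold change -0.25, adjusted p = 0.0632, edgeR), and 0 of 10 LSD rats lay above the Ctrl median. *Crtc2* passed at equal depth (-0.26, adjusted p = 0.0473), with 1 surrogate variable (-0.25, adjusted p = 0.0163) and with the replicate block (-0.25, adjusted p = 0.0482), and its change was -0.060 with depth as a covariate (edgeR). *Mef2b* was near the limit of detection, with 0.224 ± 0.0939 and 0.292 ± 0.150 RPM (log2 fold change -0.44, adjusted p = 0.346, edgeR).

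Upstream of CREB and the CRTC proteins, 5 of 15 genes rose, 1 fell and 9 did not pass, with a median log2 fold change of 0.11. *Camk4*, the nuclear calcium-calmodulin kinase that phosphorylates CREB, measured 170 ± 18.9 RPM in LSD and 136 ± 28.0 RPM in Ctrl (log2 fold change 0.32, adjusted p = 0.0364, edgeR). The CREB kinase genes *Rps6ka3* (RSK2, 0.24, adjusted p = 0.0226) and *Rps6ka5* (MSK1, 0.20, adjusted p = 0.0383) rose as well (edgeR). So did *Ppp3cb*, a catalytic subunit of calcineurin, from 219 ± 28.6 to 256 ± 18.5 RPM (0.22, adjusted p = 0.0269, edgeR). The catalytic subunits of protein kinase A moved apart, since *Prkacb* rose (0.15, adjusted p = 0.0360) and *Prkaca* fell (-0.14, adjusted p = 0.0466, edgeR). *Sik1*, *Sik2* and *Sik3*, which restrain the CRTC proteins, did not pass. Of all genes tested, 6.48% were called higher and 8.54% lower. The 5 higher calls became 0 of 15 with depth as a covariate and with span offsets. In those fits 7.06% and 10.3% of all genes were called in either direction. In the shared depth range edgeR called 0 genes in all, so the 0 of 15 there says nothing particular to these enzymes. With depth as a covariate *Ppp3cb* was at 0.086, *Rps6ka5* at 0.091, *Rps6ka3* at 0.12, *Camk4* at 0.24 and *Prkaca* at -0.069, and *Prkacb* was at 0.065 with span offsets (log2 fold changes).

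Among partners of MEF2 and SRF, 2 of 12 genes rose, 1 fell and 9 did not pass, with a median log2 fold change of -0.04. The remaining gene of that list, *Mapk7*, was listed with 0 reads in every library and was not tested. Over all genes tested, 6.48% were called higher and 8.54% lower. *Mkl2*, which encodes the SRF cofactor MRTF-B, rose from 13.2 ± 2.52 RPM in Ctrl to 17.4 ± 1.34 RPM in LSD (log2 fold change 0.39, adjusted p = 0.0102, edgeR), with 10 of 10 LSD rats above the Ctrl median. *Elk4*, a ternary complex factor that binds beside SRF, rose from 29.1 ± 2.96 to 34.5 ± 2.78 RPM (0.25, adjusted p = 0.0117, edgeR). *Hdac5*, a class IIa deacetylase that represses MEF2, fell from 243 ± 26.5 to 208 ± 10.5 RPM (-0.22, adjusted p = 0.0135, edgeR). The MRTF-A gene *Mkl1* measured 92.3 ± 11.7 RPM in LSD and 105 ± 19.9 RPM in Ctrl and did not pass (-0.18, adjusted p = 0.230, edgeR).

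Of 21 CREB target genes, 2 rose, 1 fell and 18 did not pass, with a median log2 fold change of 0.18. The shares of all genes called were 6.48% higher and 8.54% lower. *Bdnf*, the neurotrophin gene, rose from 15.8 ± 1.65 to 21.8 ± 4.13 RPM (0.46, adjusted p = 0.00689, edgeR). *Ppargc1a*, a coactivator of mitochondrial genes, rose from 27.7 ± 3.53 to 35.9 ± 3.42 RPM (0.37, adjusted p = 0.00511, edgeR). The neuropeptide gene *Sst* fell from 162 ± 26.2 to 133 ± 11.6 RPM (-0.28, adjusted p = 0.0222, edgeR). The full CRE was in windows of 6 of the 17 targets that have one (35.3%), against 2.0% of 27457 genes. These were *Ppargc1a* and *Sst*, which changed in opposite directions, and *Btg2*, *Dusp1*, *Scg2* and *Vgf*, which did not pass. The list was made of genes known as CREB targets, so this share describes the list and is not a test.

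Of 14 MEF2 target genes, *Bdnf* and *Homer1* rose, 0 fell and 12 did not pass, with a median log2 fold change of 0.11. *Homer1*, which encodes a scaffold of the postsynaptic density and a short activity-induced form, went from 71.1 ± 10.8 to 87.3 ± 11.6 RPM (0.30, adjusted p = 0.0250, edgeR). *Homer1* did not pass with depth as a covariate (0.16, adjusted p = 0.255) or with span offsets (0.21, adjusted p = 0.0980, edgeR). The background for the MEF2 and the SRF targets was 6.48% of all genes called higher and 8.54% lower. Of 22 SRF target genes, 0 rose, 3 fell and 19 did not pass, with a median of -0.02. *Wdr1*, a cofactor of actin disassembly (-0.21, adjusted p = 0.0102), *Zyx*, the focal adhesion gene zyxin (-0.34, adjusted p = 0.0434), and *Actb*, the beta-actin gene (-0.24, adjusted p = 0.0486), were those that fell (edgeR). With depth as a covariate 0 SRF targets were lower and 1 was higher, and the log2 fold changes were -0.12 for *Wdr1*, -0.031 for *Zyx* and -0.043 for *Actb*. With the replicate block 5 were lower and 2 higher, and with span offsets 1 was lower. Of all genes, 7.06% were called with depth as a covariate, 17.8% with the block and 10.3% with span offsets. The MEF2 and SRF lists were likewise made of known targets, so the shares with a motif are a description. The MEF2 site was in windows of 0 of the 8 MEF2 targets that have a window, against 3.66% of genes. The CArG box was in windows of 5 of the 17 SRF targets that have one (29.4%, against 1.77% of genes), *Actg1*, *Cnn2*, *Egr1*, *Egr2* and *Fhl2*, and none of these passed. The immediate-early genes *Fos*, *Fosb*, *Junb*, *Egr3*, *Arc*, *Npas4*, *Nr4a1*, *Nr4a2* and *Nr4a3* did not pass either, and *Fos* varied widely within groups, with 29.4 to 88.7 RPM in LSD and 11.7 to 79.8 RPM in Ctrl.

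**Figure D5:**
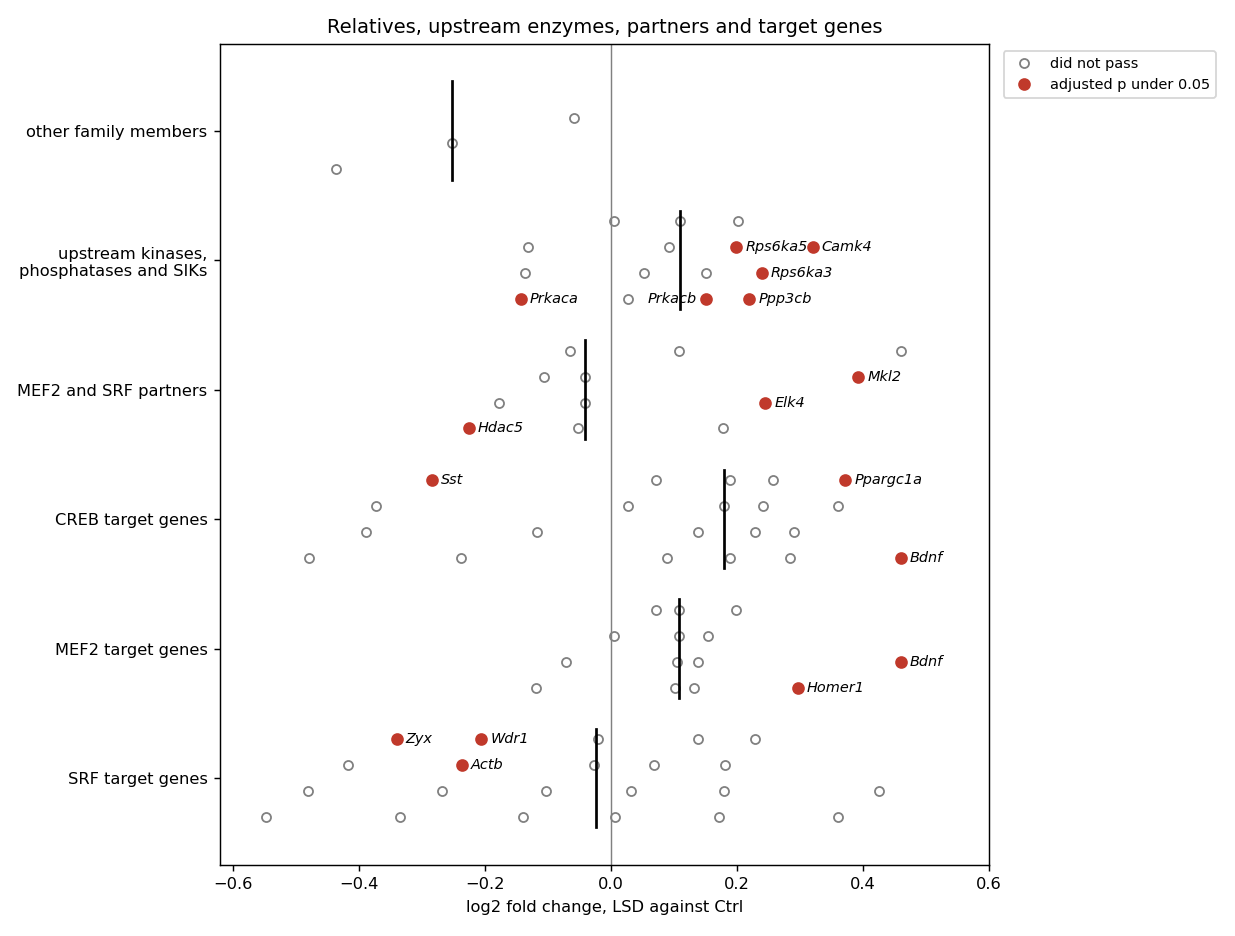
Log2 fold change, LSD against Ctrl, of each tested gene on the 6 lists, with 1 point per gene in each list and a vertical bar at the median of the list. Points are filled red where the adjusted p of edgeR was under 0.05 and open where it was not. A gene on more than 1 list, such as *Bdnf*, has a point in each. Of the 6 upstream enzymes that passed, 5 lie right of 0, and the 3 SRF targets that passed lie left of 0. With depth as a covariate none of these 6 and 3 genes passed, and 7.06% of all genes did.

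Of the 16 list genes named as called, DESeq2, which called 18.0% of all genes, called all 16. With the replicate number as a block (17.8% of all genes called) 15 passed, and with that block and span offsets (12.5%) 7. With log2 depth as a covariate (7.06% of all genes called) 3 of them passed, *Mkl2*, *Ppargc1a* and *Sst*. With offsets for gene span (10.3% of all genes called) 6 passed, *Mkl2*, *Elk4*, *Hdac5*, *Ppargc1a*, *Bdnf* and *Wdr1*. In the rats of the shared depth range, where edgeR called 0 genes in all, 0 of 16 passed.

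The labelled tissue was read from marker lists, of which no gene was at 0 in all rats. The 7 neuronal markers summed to 5777 to 7101 RPM in LSD and 5643 to 7378 RPM in Ctrl, and 1 of the 7, *Gad2*, was called. The 5 oligodendrocyte markers were all on the lower side in LSD, with 0 called, at 1980 to 5328 RPM against 1937 to 6941 RPM. The 4 striatal markers summed to 95.4 to 184 RPM in LSD and 105 to 277 RPM in Ctrl, all 4 on the lower side with 0 called. The median log2 fold change was -0.71 for the striatal markers (-1.06 to -0.27) and -0.36 for the oligodendrocyte markers (-0.48 to -0.22). For the 10 genes the log2 fold changes ran from -0.28 to 0.29. Among the markers of astrocytes, oligodendrocyte precursors, microglia, vessels and choroid plexus, 0 passed. Ctrl rats 2, 8 and 9 had the highest sums of oligodendrocyte markers (6941, 6891 and 5845 RPM) and striatal markers (211, 277 and 247 RPM). *Crebbp*, *Mef2d* and *Srf* were lowest in Ctrl rat 2, *Mef2a* in Ctrl rat 8, and *Ep300* and *Mef2c* in Ctrl rat 9. *Creb1*, *Crem*, *Crtc1* and *Crtc3* were lowest in other rats, and *Mef2a* was second highest in Ctrl rat 2. The part of cell composition in the values of the 10 genes was not tested.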

How the data were processed

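RNA was sequenced from the mPFC of 20 rats, 1 library each, and the sample labels gave the groups. Per the study's methods, reads were trimmed, mapped to rn6 by HISAT2 and assigned to genes by HTSeq, and the authors deposited the raw counts, without normalisation or filter. Versions, annotation and strand setting are not given in the sources used here. The matrix lists 31038 genes, of which 5839 had no read. The 5 rows without a gene name held 25.5% to 29.0% of each library's counts and were left out. No value column was left unused. No pair of libraries was identical.

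The filter kept genes whose count reached 5 in 10 or more libraries (16605), which were tested with edgeR 4.0.16 in R 4.3.3 (TMM, quasi-likelihood F test, Benjamini-Hochberg adjustment over all genes, threshold 0.05). The study used DESeq2, taken here (1.42.0) as an alternative. Other alternatives were median-ratio and total-count scaling, other filters, 1 surrogate variable (sva 3.50.0), log2 depth as a covariate, equal depth, centred offsets for gene span, the replicate number as a block and each rat left out. For the offsets, departures of a rat from the average rat were pooled in 50 bins by gene span in GRCr8, which gave a span for 89.9% of the kept genes, and smoothed over 5 bins. The fits were tested on simulated data. Ratios of 2 genes used reads plus 0.5, and correlations used log2(RPM + 1). Both were tested with 100000 permutations in Python 3.11.15 (numpy 2.4.6, scipy 1.17.1). Figures were drawn with matplotlib 3.10.9.

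The 10 genes and the lists were chosen with earlier results of these data known. Named in the text are the 10 genes and, from each list, the genes past the threshold, at most 5 in each direction by p, or the 2 with the smallest p where fewer than 2 passed. *Atf1*, *Mettl21a*, *Mkl1*, *Mapk7*, the SIK genes, the immediate-early genes, the targets with a motif and the marker *Gad2* were named in addition after their values were seen. The p-values set a group difference or a correlation against the variation between rats, and each group's precision is set by its 10 rats.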

Additional observations from a re-analysis of the deposited data

Results flagged for a closer look

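*Crem* in Ctrl rat 4 was the lowest of its group by a wide gap, at 7.73 RPM, against 9.67 RPM at the Ctrl median and 10.6 RPM in the highest Ctrl rat. Dixon's test was applied to each of the 10 genes in both groups, 20 groups of rats in all, and this was the 1 value past its 95% limit. Chance passes about 1 in 20 such groups.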

How the results depend on the processing

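The direction was the same for *Creb1*, *Crem*, *Ep300*, *Mef2a*, *Mef2c* and *Srf* under all 12 alternatives. *Creb1* did not pass without a filter on low counts (0.31), with log2 depth as a covariate (0.26), at equal depth (0.28), with span offsets (0.22) or in the shared depth range (0.23). *Srf* did not pass with depth as a covariate (-0.061), span offsets (-0.23) or in the shared depth range (-0.10). Depth as a covariate brought *Ep300* past the threshold (0.28) and turned *Crtc1* (0.067) and *Mef2d* (0.10), which also turned in the shared range (0.072 and 0.076). Span offsets turned *Crebbp* (-0.047). Total counts brought *Mef2a* (0.16) and *Mef2c* (0.17) past it. The cause of these changes was not tested, and the shared range also held fewer rats.

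Of the 10 genes, 3 were called higher with total counts and 0 without a filter, at equal depth, with span offsets or in the shared range. The number called lower was 0 with depth as a covariate, span offsets or the shared range. Over all genes, 534 were higher and 639 lower with depth as a covariate, 568 were higher with span offsets, 858 were lower with total counts and 836 without a filter. In the shared range, 0 passed in either direction with edgeR. Over all lists, 5 were higher and 3 lower with depth as a covariate, 4 and 2 with span offsets, and 0 and 0 in the shared range, while 3 were lower with total counts or no filter and 10 with 1 surrogate variable.

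Whether the replicate numbers pair the rats is not given by the labels and was not tested. Same-numbered rats' deviations correlated at -0.259 to 0.467 (6 of 10 pairs over 0.1), and 1 of 10 LSD rats correlated best with its own number. With the replicate block, 1355 genes were higher and 1606 lower, with *Creb1* at 0.30 (adjusted p = 0.00963) and *Srf* at -0.27 (adjusted p = 0.0135, edgeR). Of the lists, 14 genes were higher and 9 lower, among them 5 CREB targets higher. With span offsets and the block, *Crtc1* passed (-0.23), *Crebbp* (-0.044) and *Crtc3* (-0.0047) turned, 2 of the 10 genes were lower and 3 list genes were lower.

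Leaving out 1 rat gave *Creb1* at 0.25 to 0.33, which did not pass without LSD rats 2, 3, 5, 6, 7, 8 or 10 or Ctrl rats 1, 3, 4, 5 or 9. *Srf* lay at -0.32 to -0.25 and did not pass without LSD rats 7 or 8 or Ctrl rats 1, 3, 4 or 5. *Crem* (0.15 to 0.22) and *Mef2a* (0.092 to 0.14) each passed in 1 fit, without LSD rat 1 and Ctrl rat 2. *Crebbp* lay at -0.0093 to 0.086, below 0 without Ctrl rats 2 or 9. The log2 ratio of *Crtc1* to *Crtc3* lay at -0.28 to -0.17, of *Mef2a* to *Mef2d* at 0.15 to 0.24, of *Mef2c* to *Mef2d* at 0.16 to 0.23 (passing also without Ctrl rat 6) and of *Mef2a* to *Mef2c* at -0.045 to 0.019, above 0 without LSD rats 3 or 4 or Ctrl rat 2. The 10 genes gave 0 to 2 higher and 0 to 1 lower calls, all genes 659 (without LSD rat 8) to 1681 (without Ctrl rat 2) higher calls, with 705 without Ctrl rat 4, and 907 (without LSD rat 8) to 1867 lower calls, and the lists 6 to 13 and 3 to 9. The correlation of *Crem* with *Crtc3* was -0.13 without LSD rat 1 and Ctrl rat 4. The SE of the log2 fold change lay between 0.046 and 0.11 for the 10 genes.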
